A study of Homo sapiens with 8 samples.

Results

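Heat shock and endoplasmic reticulum (ER) chaperone genes encode the proteins that fold other proteins and the regulators that set their supply. The group described here comprised 34 named genes, 20 of the ER and 14 of the heat shock systems of the cytosol and mitochondria, out of 61906 genes listed in the expression table. The members were matched by gene symbol alone, from a list of genes that was drawn up with earlier results of these data known. All 34 had a value above 0 in every library and all 34 were among the 14478 genes tested.

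RNAseq was carried out on U251 cells, a human glioblastoma line of wild type genotype, after 24 h with LLY-283 (100 nM), a small molecule inhibitor of the arginine methyltransferase PRMT5, or with vehicle (DMSO). Each group had 4 biological replicates, and all cultures were of this single line in DMEM with FBS, so the results apply to one cell line at one dose and one time. Values are TPM, a gene's share of its library after division by transcript length, so levels can be compared between genes. TPM does not record read numbers, so sequencing depth is not known and no counting error can be attached to a value.

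Proteins that enter the ER are folded by the HSP70 family chaperone BiP with its J-domain partners, by the HSP90 family member GRP94, by the lectin chaperones calnexin and calreticulin, and by protein disulfide isomerases. When unfolded proteins build up, the sensors ATF6, IRE1 and PERK start the unfolded protein response (UPR), which raises the transcription of these genes. ATF6 and the spliced form of XBP1 do so partly through the ER stress element, while in the cytosol HSF1 binds the heat shock element to raise HSP70, HSP90 and small heat shock protein genes.

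The ER stress elements of the members are shown first because the UPR is known to act partly through this element. The RefSeq promoter table (build GRCh38.p14), which holds 250 bases before to 50 after each gene start, matched 31 of the 34 members, all but PDIA3, CRYAB and HSF1. Both strands were searched for CCAAT, then any 9 bases, then CCACG. Promoters of 7 of these 31 members (22.6%) held it, against 25 of all 27305 genes in the table (0.0916%). The members include genes known to be raised by the UPR or by HSF1. These shares, and those of the heat shock element below, are therefore descriptions and no test. In the windows below, written 5′ to 3′ on the strand of the gene with the element in capitals, CGTGG at the start marks an element that lies on the other strand. HSP90B1 held 2 of them.
HSPA5, chr9:125241371-125241429, minus strand: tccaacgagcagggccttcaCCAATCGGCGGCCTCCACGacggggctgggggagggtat
HSP90B1, chr12:103930196-103930254, plus strand: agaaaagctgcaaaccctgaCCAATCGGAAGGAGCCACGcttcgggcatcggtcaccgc
HSP90B1, chr12:103930301-103930359, plus strand: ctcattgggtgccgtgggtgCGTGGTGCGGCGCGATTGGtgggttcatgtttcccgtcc
CALR, chr19:12938364-12938422, plus strand: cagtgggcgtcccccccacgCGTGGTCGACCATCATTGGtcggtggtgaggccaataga
CANX, chr5:179698758-179698816, plus strand: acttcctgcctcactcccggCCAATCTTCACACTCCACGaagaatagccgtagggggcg
CRELD2, chr22:49918534-49918592, plus strand: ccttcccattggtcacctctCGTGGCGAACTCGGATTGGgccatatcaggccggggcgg
PDIA6, chr2:10812833-10812891, minus strand: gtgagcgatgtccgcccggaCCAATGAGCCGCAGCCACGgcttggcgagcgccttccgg
XBP1, chr22:28800583-28800641, minus strand: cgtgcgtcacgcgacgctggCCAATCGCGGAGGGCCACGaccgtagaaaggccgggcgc

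The heat shock element, searched on both strands as TTC, any 2 bases, GAA, any 2 bases, TTC, or as the same pattern beginning and ending with GAA, was held by 5 of the 31 members (16.1%) and by 166 of the 27305 genes (0.608%). Those members were HSPA8, HSP90AA1, HSP90AB1, HSPD1 and DNAJA1. In DNAJA1 it lay within the first transcribed bases. The windows of the other 4 genes are given with the element in capitals, and in HSPD1 the capitals cover overlapping matches.
HSPA8, chr11:123062334-123062386, minus strand: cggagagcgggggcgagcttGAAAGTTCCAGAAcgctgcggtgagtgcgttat
HSPA8, chr11:123062159-123062211, minus strand: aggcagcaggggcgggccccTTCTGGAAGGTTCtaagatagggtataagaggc
HSP90AA1, chr14:102087100-102087152, minus strand: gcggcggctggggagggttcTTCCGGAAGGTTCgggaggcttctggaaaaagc
HSP90AB1, chr6:44247758-44247810, plus strand: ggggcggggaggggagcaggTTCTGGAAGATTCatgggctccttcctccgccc
HSP90AB1, chr6:44247811-44247863, plus strand: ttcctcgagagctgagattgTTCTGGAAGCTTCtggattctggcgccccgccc
HSPD1, chr2:197500048-197500090, minus strand: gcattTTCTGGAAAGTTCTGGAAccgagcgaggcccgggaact

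A further element of the UPR, TGACGTGG, was found in 1 of the 31 members, HYOU1, and in 253 of the 27305 genes (0.927%). As searched, the 3 elements were held by different members, but other forms of these elements were not searched.
HYOU1, chr11:119057366-119057413, minus strand: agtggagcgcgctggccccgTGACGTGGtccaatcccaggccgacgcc

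To determine whether LLY-283 changed the expression of the chaperone genes, the groups were compared with limma on log2(TPM + 0.1) across all genes tested, and a gene was called at an adjusted p under 0.05. After LLY-283, 7 members fell (XBP1, HYOU1, CALR, DNAJB9, MANF, EDEM1 and HSPA1B), 3 rose (HSPH1, HSPD1 and HSF1) and 24 were not called. The changes were small: the log2 fold changes of the 34 members lay between -0.28 and 0.14, and no member passed 1.5-fold, which 3.87% of all genes tested did with a call. With 10 of 34 called (29.4%), the members were close to the background of 26.2% over all genes tested and to the 30.2% among the 1642 genes that averaged 100 TPM or more. Their median log2 fold change was -0.03, beside -0.05 for all genes tested.

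The calls of the ER genes and of the heat shock genes are given apart, and the difference between them was not tested. Of the 20 ER genes, 6 fell (30.0%) and none rose, beside 17.6% of all genes tested that fell, and 18 of the 20 fold changes were below 0, with a median of -0.08, where 8712 of all 14478 genes tested lay below 0. Of the 14 heat shock genes, 3 rose, beside 8.61% of all genes tested, 1 fell, and 10 of the 14 fold changes were above 0, with a median of 0.05, where 5766 of the 14478 lay above 0. Abundant genes leaned upward in this fit: of the 1642 genes that averaged 100 TPM or more, 304 rose and 192 fell, with a median of 0.02. With TPM rescaled by median-of-ratios size factors, which brought the median of all genes tested from -0.05 to -0.0022, 1 ER gene (XBP1) fell and 12 of the 20 lay below 0, with a median of -0.03, while 4 heat shock genes rose and 1 fell, with a median of 0.09 (1927 of all 14478 genes tested rose and 1866 fell in that fit). Under quantile normalization 8 ER genes fell and none rose, while 3 heat shock genes rose, 3 fell and 8 of the 14 lay above 0, where 1871 of the 14478 rose and 1820 fell. With the mitochondrial genome genes left out, 10 ER genes fell and none rose, while 2 heat shock genes rose and 2 fell, where 1165 of 14463 genes rose and 2649 fell.

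**Figure D1:**
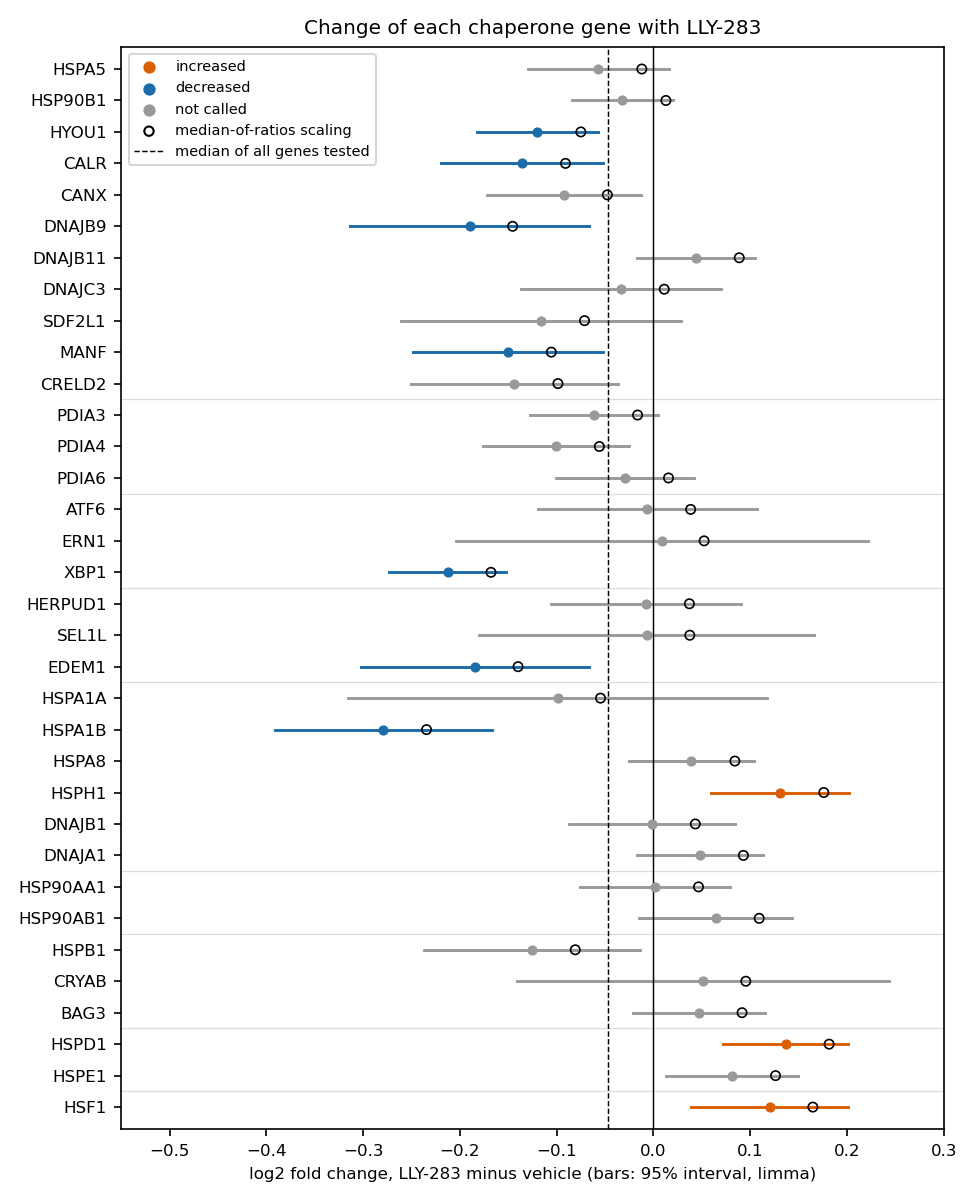
The log2 fold change of each of the 34 genes (LLY-283 minus vehicle, limma on log2(TPM + 0.1), n = 4 libraries a group) is plotted as a filled point with its 95% interval. Orange points are genes called as increased and blue points genes called as decreased at an adjusted p under 0.05. Grey points are genes not called. Open circles give the log2 fold change under median-of-ratios scaling, and the dashed line gives the median of all genes tested. The filled points of the ER genes lie mostly left of 0 and those of the heat shock genes mostly right of 0. Those of HSPA1B (-0.28) and XBP1 (-0.21) lie farthest left.

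The fourth LLY-283 library stood apart from the others. Genes of the mitochondrial genome took 7.19% of its TPM, against 10.15% to 11.0% in the other 7 libraries, and it held the highest LLY-283 value of many chaperone genes. Without that library 12 members fell and 4 rose, where 2659 of all 14478 genes tested fell and 1508 rose. HSPA5, SDF2L1, CRELD2, PDIA3, PDIA4 and HSPB1 were then also called as decreased and HSPE1 as increased, and the call of EDEM1 was lost. Without any one of the other 7 libraries, 3 or 4 members fell and 2 or 3 rose. In those fits 1889 to 2143 of all 14478 genes tested fell and 888 to 1023 rose. With the mitochondrial genome genes left out and TPM rescaled, 12 members fell and 2 rose, beside 2649 and 1165 of 14463 genes. The groups did not overlap in 11 of the 34 members (32.4%; 29.2% of all genes tested), and in 21 (61.8%) with the fourth LLY-283 library left out (37.8% of all genes tested). The part of this library in the results was not otherwise tested.

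**Figure D2:**
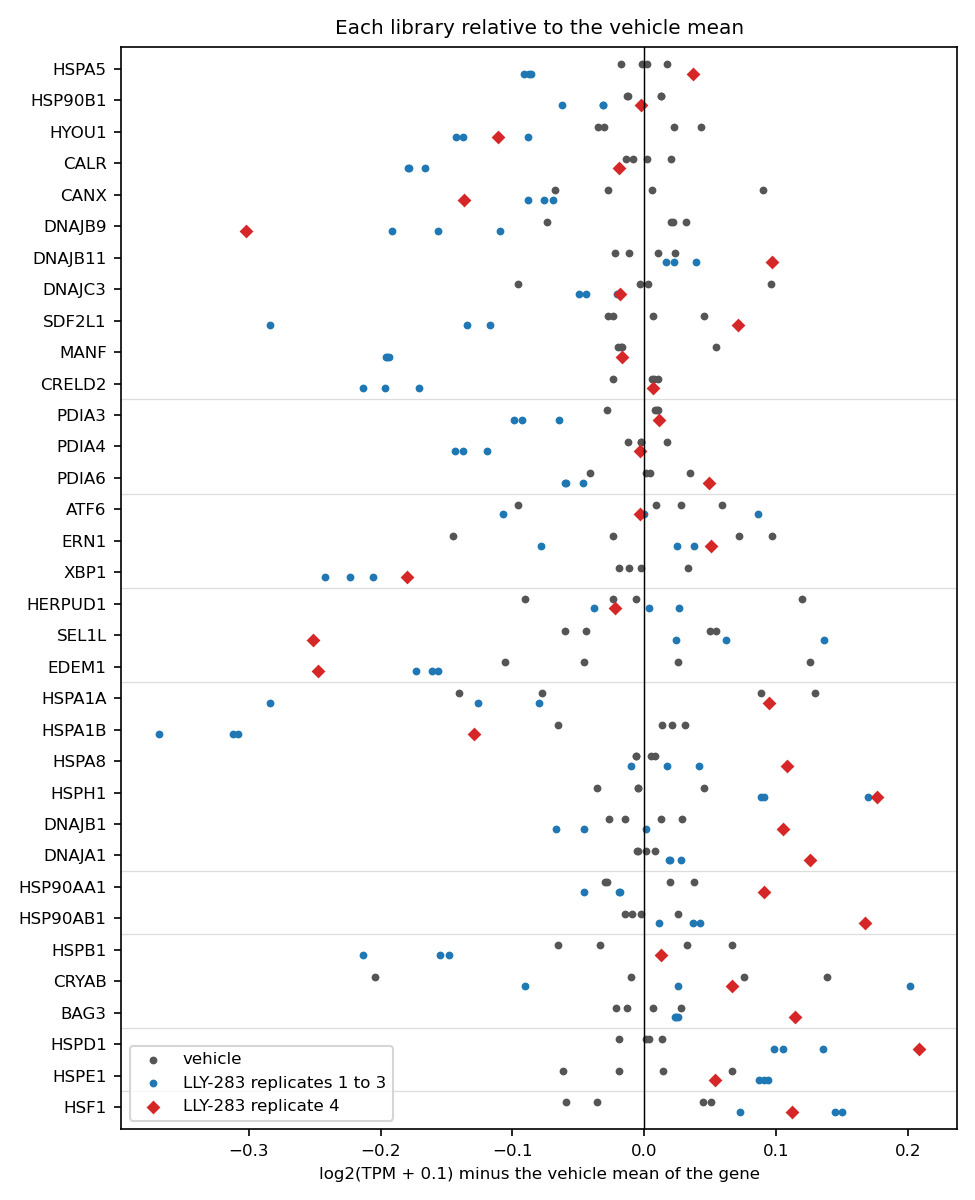
Each point is 1 library, drawn as the log2 of its TPM relative to the vehicle mean of that gene, with vehicle, LLY-283 replicates 1 to 3 and LLY-283 replicate 4 in separate colours. For HSPA5, CALR, MANF, CRELD2 and PDIA4, LLY-283 replicates 1 to 3 lie below all vehicle libraries while LLY-283 replicate 4 lies at or near them.

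XBP1, the transcription factor that IRE1 activates by splicing its mRNA, showed the smallest p-value of the group. Its 4 vehicle libraries read 98.08, 100.54, 96.94 and 97.49 TPM, and its 4 LLY-283 libraries 85.18, 84.16, 83.06 and 86.71 TPM. Every LLY-283 value was well below every vehicle value, LLY-283 replicate 4 included. XBP1 fell by 0.21 on the log2 scale (SE 0.027, adjusted p = 0.000651), from 98.3 ± 1.59 to 84.8 ± 1.55 TPM (SD, n = 4), and kept the call in all 19 alternative fits. The TPM of a gene sums its spliced and unspliced mRNA, so the active form was not measured. The sensors themselves were not called: ATF6 was at 30.0 ± 1.37 TPM with vehicle and 29.9 ± 1.64 with LLY-283, and ERN1, which encodes IRE1, at 3.17 ± 0.245 and 3.19 ± 0.132 TPM. Their 95% intervals for the log2 fold change ran from -0.12 to 0.11 and from -0.20 to 0.22.

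Among the ER luminal chaperones and their partners, 4 of 11 genes fell, beside 17.6% of all genes tested, and 10 of 11 fold changes were below 0, where 8712 of 14478 were. Under median-of-ratios scaling none of the 11 was called. HYOU1, the HSP110 family partner of BiP, read 212.62, 224.46, 221.26 and 213.30 TPM with vehicle and 197.26, 204.97, 198.04 and 201.69 TPM with LLY-283. The groups were apart, and the gene fell by 0.12 on the log2 scale (SE 0.028, adjusted p = 0.0127). This call was lost under median-of-ratios scaling only (adjusted p = 0.0988). It is the member whose promoter holds TGACGTGG.

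CALR, the calcium-binding lectin chaperone calreticulin, read 1119.87, 1147.08, 1132.37 and 1124.25 TPM with vehicle and 999.19, 998.61, 1007.77 and 1115.91 TPM with LLY-283. The first 3 LLY-283 values were far below the vehicle range and the fourth just under it. CALR fell by 0.14 on the log2 scale (SE 0.038, adjusted p = 0.0259). Leaving out LLY-283 replicate 4 lowered the adjusted p to 0.000243, whereas leaving out any one of the other 7 libraries ended the call, with adjusted p between 0.0559 and 0.0790. It also ended under median-of-ratios scaling (-0.09, adjusted p = 0.161), without the eBayes trend and with no filter on low values.

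MANF, a secreted ER protein that binds BiP, showed the same arrangement of libraries: 214.36, 225.31, 214.26 and 213.98 TPM with vehicle against 189.39, 189.45, 189.67 and 214.40 TPM with LLY-283. The groups overlapped through LLY-283 replicate 4 alone. MANF fell by 0.15 on the log2 scale (SE 0.044, adjusted p = 0.0316). Its adjusted p was 0.000938 without LLY-283 replicate 4 and between 0.0617 and 0.0862, not called, without any one of the other 7 libraries. The call was also lost under median-of-ratios scaling (-0.11, adjusted p = 0.151) and with the GC and length trend removed (-0.10, adjusted p = 0.0925). It was lost as well with a replicate block (adjusted p = 0.0538), without the eBayes trend and with no filter on low values.

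DNAJB9, a J-domain partner of BiP that represses IRE1, was the least abundant gene among the luminal chaperones, with 12.88, 12.05, 12.97 and 12.87 TPM for vehicle and 11.37, 11.75, 11.10 and 10.27 TPM for LLY-283. Here LLY-283 replicate 4 was the lowest library, and the groups did not overlap. DNAJB9 fell by 0.19 on the log2 scale (SE 0.055, adjusted p = 0.0316), and the call was lost without LLY-283 replicate 1 or 3 or vehicle replicate 1, 3 or 4 (adjusted p between 0.0529 and 0.0802). It was also lost under quantile normalization (-0.09, adjusted p = 0.180) and under median-of-ratios scaling (-0.15, adjusted p = 0.0646). A fit with a replicate block (adjusted p = 0.0719) and one with no filter on low values lost it too.

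BiP and GRP94, both abundant, were not called. HSPA5, which encodes BiP, read 858.15, 879.02, 869.75 and 867.74 TPM with vehicle and 817.75, 815.42, 818.28 and 891.11 TPM with LLY-283. LLY-283 replicate 4 held the highest of the 8 values and the other 3 LLY-283 libraries the lowest. Its log2 fold change was -0.06 (SE 0.033, adjusted p = 0.228), and without LLY-283 replicate 4 it fell by 0.09 on that scale (adjusted p = 0.00342). It was also called as decreased under quantile normalization and with the mitochondrial genome genes left out. HSP90B1, which encodes GRP94, was at 1097 ± 11.0 TPM with vehicle and 1073 ± 18.3 TPM with LLY-283 (log2 fold change -0.03, adjusted p = 0.343).

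CANX, the membrane-bound lectin chaperone calnexin, did not overlap between the groups, at 546.67 to 609.73 TPM with vehicle and 521.15 to 546.10 TPM with LLY-283, but missed the call (log2 fold change -0.09, adjusted p = 0.0843), and was called in 1 of the 19 alternative fits, with the GC and length trend removed (-0.13, adjusted p = 0.00836). CRELD2, a disulfide-linked folding factor, lay at 67.03 to 68.61 TPM with vehicle, at 58.76 to 60.50 in LLY-283 replicates 1 to 3 and at 68.45 in LLY-283 replicate 4. That library alone joined the groups, and the adjusted p went from 0.0521 to 0.000948 without it. CRELD2 was called in 4 of the 19 alternative fits, the others being those with the mitochondrial genome genes left out, with robust eBayes and with a filter at 5 TPM. SDF2L1, which keeps BiP clients soluble, was at 59.6 ± 1.405 and 55.2 ± 5.64 TPM (adjusted p = 0.216, and 0.0201 without LLY-283 replicate 4). The J-domain proteins DNAJB11 (log2 fold change 0.04) and DNAJC3 (-0.03) were not called, and DNAJB11 was the only one of these 11 genes with a fold change above 0.

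All 3 protein disulfide isomerases had fold changes below 0 and none was called. PDIA4 read 442.55, 436.58, 436.48 and 433.51 TPM with vehicle and 402.59, 395.86, 397.53 and 436.32 TPM with LLY-283. Its LLY-283 replicates 1 to 3 were all below the lowest vehicle library and replicate 4 was within the vehicle range. The log2 fold change was -0.10 (SE 0.034, adjusted p = 0.0519, and 0.000899 without LLY-283 replicate 4). PDIA4 was called as decreased in 6 of the 19 alternative fits, of which 5 kept all libraries (GC and length trend removed, filter at 5 TPM, mitochondrial genome genes left out, quantile normalization and robust eBayes). PDIA3, the isomerase that works with calnexin and calreticulin, was at 1512 ± 19.5 and 1449 ± 51.3 TPM (adjusted p = 0.159, and 0.00758 without that library, with calls also in 3 of the fits that kept all libraries), and PDIA6, which also restrains IRE1, at 378 ± 8.16 and 371 ± 13.8 TPM (adjusted p = 0.532).

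In ER-associated degradation, which returns misfolded proteins to the cytosol for destruction, 1 of 3 members fell, beside 17.6% of all genes tested. EDEM1, which selects misfolded glycoproteins, read 27.16, 29.75, 31.90 and 28.32 TPM with vehicle and 26.22, 26.13, 25.91 and 24.60 TPM with LLY-283. The vehicle libraries were spread more widely than the LLY-283 libraries, and the groups did not overlap. EDEM1 fell by 0.18 on the log2 scale (SE 0.053, adjusted p = 0.0291), a call that was lost without any one LLY-283 library or without vehicle replicate 2 or 3 (adjusted p between 0.0513 and 0.0723), under median-of-ratios scaling (adjusted p = 0.0543) and with no filter on low values. HERPUD1, a membrane adaptor of the pathway, was at 76.95 ± 4.76 and 76.45 ± 1.5025 TPM, and SEL1L, a partner of the ubiquitin ligase HRD1, at 32.6 ± 1.37 and 32.5 ± 3.65 TPM. Neither was called, and their 95% intervals ran from -0.11 to 0.09 and from -0.18 to 0.17 on the log2 scale.

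**Figure D3:**
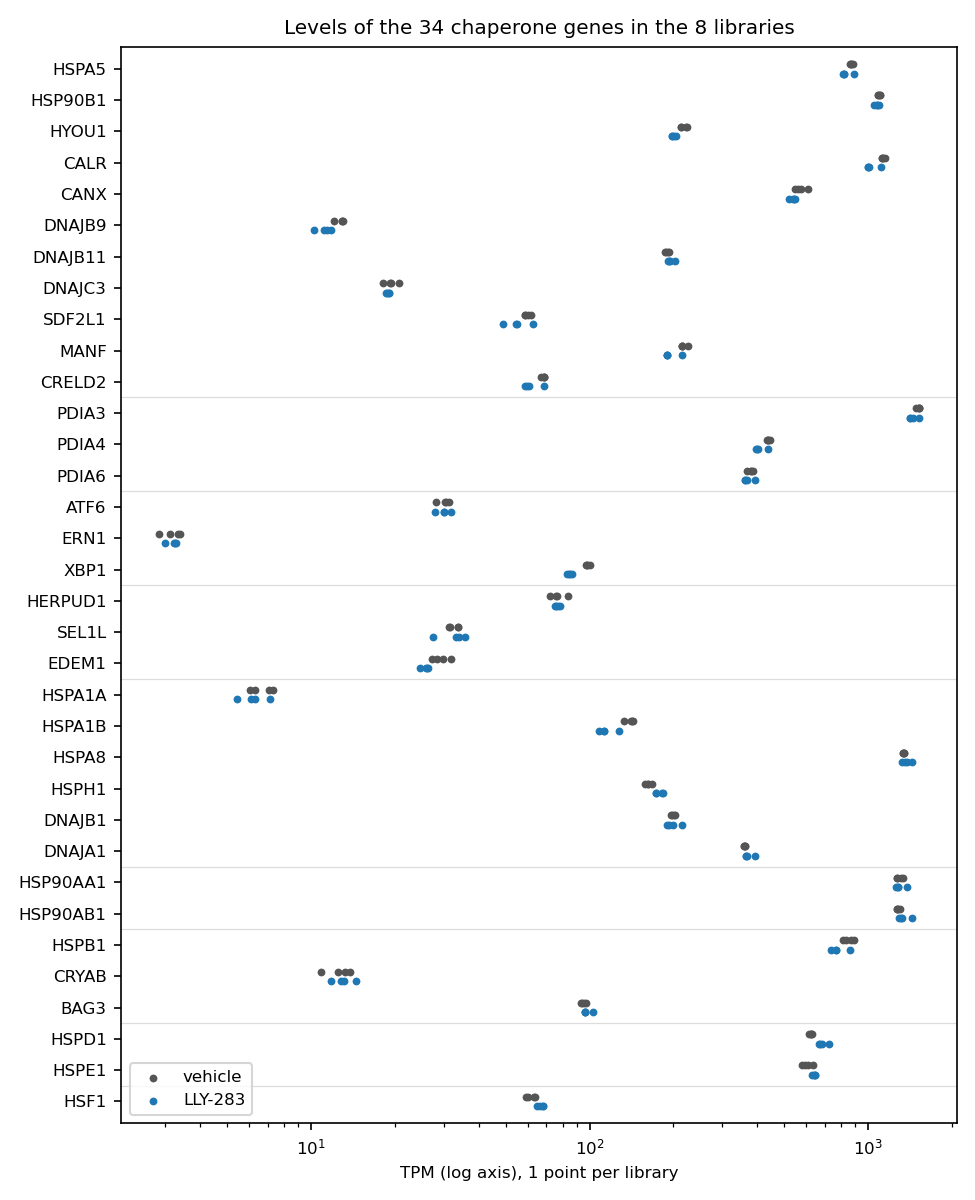
The TPM of each member is shown on a log axis, with 1 point for each of the 4 vehicle and 4 LLY-283 libraries. The members span from ERN1 at about 3 TPM to PDIA3 at 1512 TPM with vehicle, and the groups lie close together at every level.

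In the cytosolic HSP70 system, 1 of 6 genes fell and 1 rose, beside 17.6% and 8.61% of all genes tested. HSPA1B, a stress-inducible HSP70, gave the largest change among the 34 genes, with 142.72, 140.97, 133.43 and 141.73 TPM for vehicle and 108.20, 112.48, 112.80 and 127.66 TPM for LLY-283. LLY-283 replicate 4 was again the highest of its group, yet below every vehicle library. HSPA1B fell by 0.28 on the log2 scale (SE 0.050, adjusted p = 0.00366) and kept the call in all 19 alternative fits.

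HSPA1A encodes a nearly identical protein, and its gene starts 12195 bases away on chromosome 6. Of its transcript, 75.1% of the 50-base windows also occur in HSPA1B, and 71.6% the other way, so reads could be assigned to either copy and the split between them is uncertain. HSPA1A was listed at 6.67 ± 0.605 TPM with vehicle and 6.23 ± 0.685 TPM with LLY-283 (log2 fold change -0.10, adjusted p = 0.486). The sum of both copies does not rest on that split: it went from 146 ± 3.89 to 122 ± 9.06 TPM, and its LLY-283 values of 114.28, 118.76, 118.24 and 134.76 TPM lay below the lowest vehicle sum of 140.71 TPM.

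HSPH1, an HSP110 protein that exchanges nucleotide on HSP70, read 161.69, 158.19, 167.41 and 161.71 TPM with vehicle and 172.73, 172.46, 182.47 and 183.33 TPM with LLY-283. Every LLY-283 library was above every vehicle library. HSPH1 rose by 0.13 on the log2 scale (SE 0.032, adjusted p = 0.0148), and the call was lost in 1 alternative fit, the one that removed a trend on GC and length (log2 fold change 0.09, adjusted p = 0.0999).

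The other HSP70 system members were not called. HSPA8, the constitutive HSP70, was at 1336 ± 6.99 TPM with vehicle and 1374 ± 48.5 TPM with LLY-283 (log2 fold change 0.04, adjusted p = 0.347). DNAJA1, a J-domain partner of HSP70, lay at 358.92 to 362.27 TPM with vehicle and at 365.00 to 392.94 TPM with LLY-283. These groups did not overlap, but the gap was narrow and the gene was not called (log2 fold change 0.05, adjusted p = 0.254). DNAJB1, the stress-inducible J-domain protein, was at 199 ± 3.48 and 199 ± 10.7 TPM, with a 95% interval of -0.09 to 0.08 on the log2 scale.

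Both cytosolic HSP90 genes were among the most abundant members and neither was called. HSP90AA1, the inducible form, was at 1299 ± 30.8 and 1301 ± 55.8 TPM (log2 fold change 0.0017, adjusted p = 0.976), and HSP90AB1, the constitutive form, at 1281 ± 16.0 and 1341 ± 66.3 TPM (0.06, adjusted p = 0.208). Under quantile normalization HSP90AA1 was instead called as decreased (log2 fold change -0.07, adjusted p = 0.0432). The ratio of HSP90AB1 to HSP90AA1 was 0.951 to 1.00 in the vehicle libraries and 1.03 to 1.04 in the LLY-283 libraries, so all LLY-283 ratios were above all vehicle ratios.

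The small heat shock proteins bind unfolded proteins and hold them for refolding, and BAG3 links them to HSP70. HSPB1 read 813.82, 891.78, 832.10 and 870.78 TPM with vehicle and 734.50, 768.59, 764.97 and 859.27 TPM with LLY-283. Replicates 1 to 3 of LLY-283 were below the vehicle range and replicate 4 was within it. The log2 fold change was -0.13 (SE 0.050, adjusted p = 0.0925, and 0.00841 without LLY-283 replicate 4), and HSPB1 was also called as decreased under quantile normalization and with the mitochondrial genome genes left out. CRYAB, at 12.6 ± 1.28 and 13.1 ± 1.10 TPM, and BAG3, at 94.9 ± 1.45 and 98.1 ± 3.13 TPM, were not called.

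The mitochondrial chaperonin is a chamber of HSPD1 (HSP60) closed by a lid of HSPE1 (HSP10). Their genes are read in opposite directions from RefSeq starts 105 bases apart on chromosome 2. The heat shock element of HSPD1 shown above lies in the promoter of another RefSeq start of that gene. HSPD1 read 624.30, 625.34, 615.63 and 629.70 TPM with vehicle and 667.65, 670.88, 685.02 and 720.68 TPM with LLY-283. All 4 LLY-283 libraries lay clearly above the vehicle range, which was narrow. HSPD1 rose by 0.14 on the log2 scale (SE 0.029, adjusted p = 0.00814) and kept the call in all 19 alternative fits.

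HSPE1 read 632.35, 595.68, 578.33 and 609.66 TPM with vehicle and 644.18, 641.32, 642.91 and 626.57 TPM with LLY-283. Only vehicle replicate 1 and LLY-283 replicate 4 crossed. Its log2 fold change was 0.08 (SE 0.030, adjusted p = 0.0776), and it was called as increased without either of those libraries (adjusted p = 0.0354 without vehicle replicate 1 and 0.0499 without LLY-283 replicate 4). It was also called with all libraries when the GC and length trend was removed (0.13, adjusted p = 0.00850) and under median-of-ratios scaling (0.13, adjusted p = 0.0281). The summed chaperonin level was 1194 to 1257 TPM with vehicle and 1312 to 1347 TPM with LLY-283, 7.91% higher on average, with the groups apart.

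HSF1, the transcription factor of the heat shock response, read 58.90, 63.57, 59.86 and 63.32 TPM with vehicle and 68.13, 67.86, 64.56 and 66.35 TPM with LLY-283. The groups were apart, with a narrow gap between vehicle replicate 2 and LLY-283 replicate 3. HSF1 rose by 0.12 on the log2 scale (SE 0.036, adjusted p = 0.0364), and the call was lost without LLY-283 replicate 1 or 2 or vehicle replicate 1 or 3 (adjusted p between 0.0848 and 0.0860). It was also lost with the mitochondrial genome genes left out (adjusted p = 0.0555) and with a replicate block (adjusted p = 0.0546). Fits without the eBayes trend and with no filter on low values lost it too. HSF1 is activated mainly by trimer formation and phosphorylation of the protein, which were not measured here.

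Summed levels give the weight of the abundant genes. The 20 ER genes summed to 7045.18, 7061.47, 7103.86 and 6992.50 TPM in the vehicle libraries and to 6617.39, 6565.01, 6597.72 and 6999.85 TPM in the LLY-283 libraries. LLY-283 replicate 4 reached the vehicle range and the other 3 were below it. With the mitochondrial genome genes left out of the library totals, the sums were 7783 to 7959 TPM with vehicle and 7344 to 7542 TPM with LLY-283, and the groups no longer overlapped. The 14 heat shock genes summed to 7033 ± 70.2 TPM with vehicle and 7171 ± 278 TPM with LLY-283, and their groups overlapped with and without the mitochondrial genome genes.

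**Figure D4:**
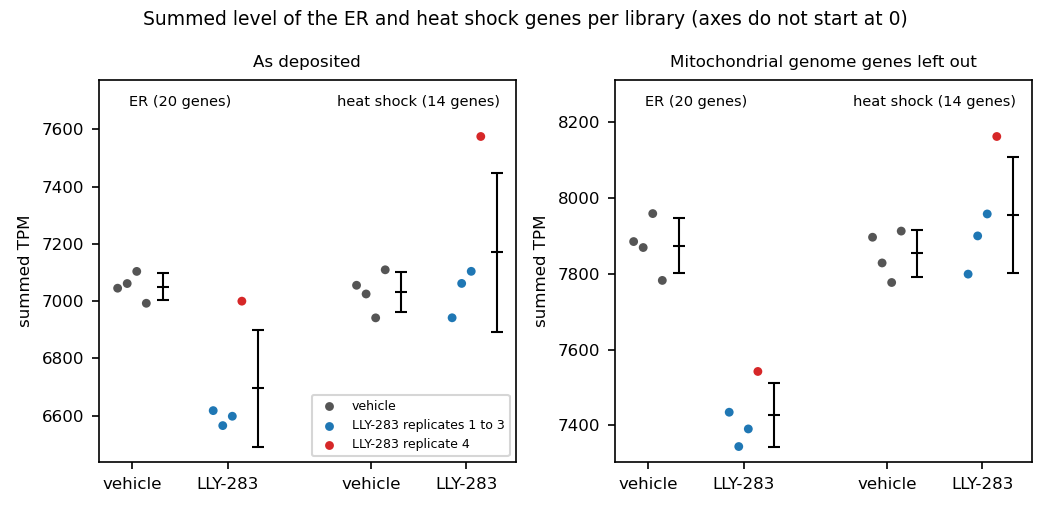
Points are the summed TPM of the 20 ER genes and of the 14 heat shock genes in each library, beside the mean ± SD of each group (n = 4), as deposited and with the mitochondrial genome genes left out. The ER sum of LLY-283 replicate 4 (6999.85 TPM) lies among the vehicle libraries as deposited and below all of them (7542 TPM) once the mitochondrial genome genes are left out.

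Ratios between 2 members of the same library are not altered by a factor that scales the whole library. The ratio of HSPD1 to XBP1 was 6.35 ± 0.0985 with vehicle and 8.09 ± 0.225 with LLY-283, and that of HSPH1 to HYOU1, HSP110 proteins of the cytosol and the ER, was 0.745 ± 0.0269 and 0.887 ± 0.0359. HSPA8 to HSPA5, the constitutive HSP70 of the cytosol and that of the ER, went from 1.54 ± 0.0223 to 1.64 ± 0.0306. In each of these pairs every LLY-283 ratio was above every vehicle ratio, LLY-283 replicate 4 included. The groups overlapped for HSPD1 to HSPE1 (1.03 ± 0.0335 and 1.07 ± 0.0519) and for HSPA1B to HSPA1A (21.1 ± 2.36 and 18.6 ± 1.42). The pairs were chosen with the members' changes known, so the ratios are descriptions without a test.

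The promoter elements can be set beside these changes. All 7 members with an ER stress element had fold changes below 0, as did 8712 of all 14478 genes tested, and 2 of the 7 (CALR and XBP1) were called, beside 17.6% of all genes tested that fell. Under median-of-ratios scaling 5 of the 7 were below 0, the exceptions being HSP90B1 and PDIA6. Of the 18 other genes with the element, 9 were tested, of which 3 fell, 2 rose and 6 had fold changes below 0. All 5 members with a heat shock element had fold changes above 0, of which HSPD1 was called, but 2 of the 5 were above 0 under quantile normalization. Among the 42 other tested genes with the element, 6 rose, 7 fell and 21 were above 0, and over all genes tested 8.61% rose, 17.6% fell and 5766 of 14478 were above 0. A match to these letters does not show that a factor binds there. Only exact matches were counted, so the lack of a match does not show that a factor does not bind. HSPA1B, which fell, and HSPH1, which rose, held no exact heat shock element.

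Lists of further genes of the same pathways were fitted in the same comparison, in which 17.6% of all genes tested fell and 8.61% rose. Under median-of-ratios scaling 1866 of the 14478 fell and 1927 rose. In ER folding, 9 of 31 tested genes fell and 3 rose, led by CLGN, a relative of calnexin (-0.38, adjusted p = 0.00254), and TMX2, a thioredoxin-like membrane protein (0.19, adjusted p = 0.00265). In ER-associated degradation, 8 of 29 fell and 3 rose, led by NGLY1, which removes glycans from misfolded proteins (-0.38, adjusted p = 0.000329), and AUP1, which recruits a ubiquitin-conjugating enzyme (0.32, adjusted p = 0.000302). In that scaling 4 of the 31 fell and 3 rose in ER folding, and 7 of the 29 fell and 5 rose in ER-associated degradation. Apart from that of TMX2, the log2 fold changes of these leading genes were larger in size than that of any ER member. In the translocon and signal peptidase list, 3 of 23 rose and 1 fell, led by SRP68 (0.16) and SRP19 (-0.21) of the signal recognition particle.

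The remaining UPR sensors and the PERK arm had 7 of 17 tested genes that fell and 1 that rose, beside the 17.6% and 8.61% of all genes tested (TMBIM6, which restrains IRE1, 0.12, adjusted p = 0.0271). DDIT3, which encodes the stress-induced factor CHOP, read 39.23, 40.01, 39.21 and 39.16 TPM with vehicle and 27.00, 27.69, 27.38 and 28.22 TPM with LLY-283. All 4 LLY-283 libraries lay close together and far below vehicle, at a log2 fold change of -0.51 (SE 0.031, adjusted p = 2.33e-05). CHAC1, which breaks down glutathione, was the only gene of any of these lists called above 1.5-fold, with 13.6 ± 1.57 TPM for vehicle and 8.38 ± 0.372 TPM for LLY-283 (log2 fold change -0.68, adjusted p = 0.000595). ATF4, the factor upstream of both, fell by 0.08 on the log2 scale (adjusted p = 0.0377). TRIB3, CEBPB, ATF6B and CREB3L2 were the other genes of this list that fell. Under median-of-ratios scaling 4 of the 17 fell and 2 rose, beside 1866 and 1927 of all 14478 genes.

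The cytosolic and mitochondrial lists stand beside the same 8.61% of all genes tested that rose and 17.6% that fell. Of the 1642 genes that averaged 100 TPM or more, 304 rose and 192 fell. In the TRiC chaperonin and prefoldin list, the complexes that fold actin and tubulin, 8 of 14 rose and none fell, led by TCP1 (293 ± 7.02 TPM with vehicle and 343 ± 10.6 TPM with LLY-283, a log2 fold change of 0.23 with adjusted p = 0.000799), and at least 8 rose and none fell under each other scaling tried. In the remaining cytosolic HSP70 system 7 of 22 rose, led by HSPA14, a ribosome-associated HSP70 (0.45, adjusted p = 0.000212), and HSPA12A fell (-0.23, adjusted p = 0.0431), a call lost under median-of-ratios scaling. Of 16 HSP90 co-chaperones, 5 rose, led by STIP1, which joins HSP70 to HSP90 (0.17, adjusted p = 0.00464), and FKBP5 fell (-0.36, adjusted p = 0.0122). The FKBP5 call was lost under quantile normalization, where none of the 16 fell. Of 13 mitochondrial chaperones and proteases, 5 rose, led by HSPA9, the mitochondrial HSP70 (0.21, adjusted p = 0.00180), and 2 fell, led by the protease HTRA2 (-0.35, adjusted p = 0.00164). The 2 further small heat shock proteins and the 3 further heat shock factor genes tested were not called.

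**Figure D5:**
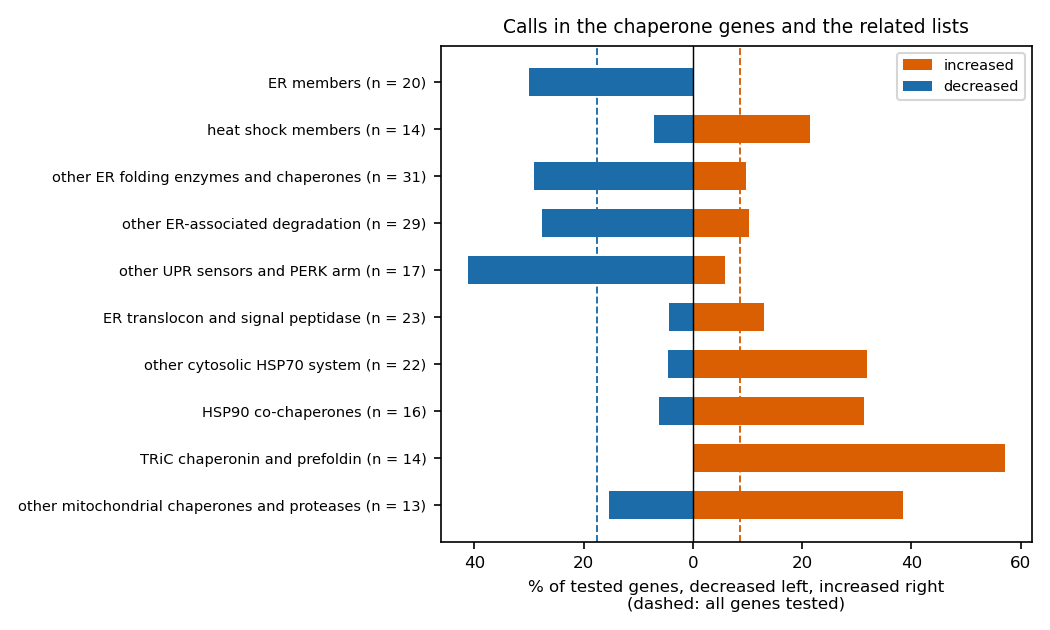
Bars give the percent of the tested genes of each list that were called as decreased (to the left) or increased (to the right), and dashed lines give the share over all 14478 genes tested (17.6% decreased, 8.61% increased). The bar of the UPR and PERK list reaches farthest to the left and that of the TRiC and prefoldin list farthest to the right.

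The glioma and neural markers examined were expressed, apart from OLIG2, which was at or below 0.03 TPM. Of those markers, GFAP was at 663 to 840 TPM, EGFR at 22.7 to 25.5 TPM and S100B at 2.34 to 4.94 TPM. NES, SOX2, VIM and CD44 were expressed in all 8 libraries. The epithelial, immune, endothelial and hepatic markers EPCAM, CDH1, PTPRC, PECAM1 and ALB were at or below 0.28 TPM. GFAP, SOX2 and NES were lower with LLY-283 (log2 fold changes -0.25, -0.27 and -0.17) and CD44 was higher (0.11). The mRNA of PRMT5, whose activity and not transcription LLY-283 inhibits, had a log2 fold change of 0.01 (adjusted p = 0.944). In bulk RNA, fewer cells that express a gene and less RNA per cell cannot be told apart.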

How the data were processed

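RNAseq of poly(A) RNA was analysed for 8 libraries of U251 cells, 4 treated with vehicle and 4 with LLY-283 (100 nM, 24 h), grouped by their labels. The authors deposited TPM per gene, rounded to hundredths. The submitters' processing notes name bcl2fastq 2.20, cutadapt 1.18, STAR 2.7.0f, Picard and RSEM 1.3.1 on hg38. Strandedness of the counting is not given in the sources used here, so members that overlap other genes (HSPD1 with HSPE1, DNAJB1 with TECR, HSF1 with DGAT1) are uncertain.

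The 14478 genes that averaged 1 TPM or more were compared on log2(TPM + 0.1) by limma 3.58.1 in R 4.3.3, using lmFit and trended eBayes, with Benjamini-Hochberg adjustment over all of them. All p-values are two-sided. The pseudocount makes the change of low genes look smaller. The fit was tested on simulated data. Gene positions came from GENCODE release 44 and promoters from RefSeq.

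The members and lists were chosen with earlier results of these data known. All members are given, and of each further list the called gene with the smallest p in each direction and any gene above 1.5-fold were named. Other genes of those lists, and the markers described, were named after their values were seen. TPM removes depth and length but not library composition, so abundant genes can shift all others. Alternatives were other scalings, filters, pseudocounts, variants of eBayes, a fit with a replicate block, a GC and length correction, the mitochondrial genome genes left out, and each library left out. The authors' TPM values carry no depth.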

Additional observations from a re-analysis of the deposited data

Results flagged for a closer look

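Each group of 4 libraries was examined for a value far from the other 3, for the members and their summed classes. A single library stood apart in 15 of the 94 groups examined. Chance sets apart about 1 in 20 independent groups, but these groups share the same 8 libraries and the sums hold the same genes, so that rate is no measure for the count of 15.

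LLY-283 replicate 4 accounted for 11 of the 15. It was the highest LLY-283 library for HSPA5 (891.11 TPM, the others at most 818.28), CALR (1115.91 TPM, the others at most 1007.77), MANF (214.4 TPM, the others at most 189.67), PDIA4 (436.32 TPM, the others at most 402.59), PDIA6 (391.09 TPM, the others at most 365.9), DNAJA1 (392.94 TPM, the others at most 367.29) and BAG3 (102.74 TPM, the others at most 96.57). It was also highest in the sum of the 11 luminal ER genes (4401.9 TPM, the others at most 4166.73), of the 20 ER genes (6999.85 TPM, the others at most 6617.39) and of all 34 genes (14575.13 TPM, the others at most 13701.84), and it was the lowest for HSPE1 (626.57 TPM, the others at least 641.32). Its mitochondrial genome share of 7.19% is given in the report, and the part of that share in these values was not tested beyond the rescaling reported there.

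Among the vehicle libraries, replicate 2 was lowest for DNAJB9 (12.05 TPM, the others at least 12.87) and CRELD2 (67.03 TPM, the others at least 68.42) and highest for MANF (225.31 TPM, the others at most 214.36). Vehicle replicate 4 was lowest for PDIA3 (1482.47 TPM, the others at least 1519.79).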

How the results depend on the processing

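Of the 10 members called, 3 (XBP1, HSPA1B and HSPD1) kept the call in all 19 alternative fits and all 10 kept their sign. Of the 24 not called, 15 were called in none of them. The count of members that fell was 7 in the main fit (2541 of all 14478 genes). It became 2 under median-of-ratios scaling (1866 of all genes) and 3 with no filter on low values (2041 of 31471 genes). It was 11 under quantile normalization (1820 of all genes) and 12 with the mitochondrial genome genes left out (2649 of 14463). With 1 library left out it ranged from 3 to 12 (1889 to 2659 of all genes). The count that rose, 3 (1247 of all genes), ranged from 2 to 4 with a library left out (888 to 1508 of all genes). A stricter adjusted p under 0.01 left 2 decreased and 1 increased (1259 and 556 of all genes), and a change above 1.5-fold left 0 of each. The members' median log2 fold change was 0.0142 under median-of-ratios scaling and -0.04 to -0.02 with a library left out. HSP90AA1 reversed under quantile normalization (-0.0704). The causes were not tested. Same-numbered libraries did not deviate together (r of -0.041, 0.032, -0.002 and -0.085). Libraries with unlike numbers ranged from -0.213 to 0.201, so these values cannot decide whether the numbers pair the samples, and the labels do not say. With a replicate block, 5 members fell and 2 rose (2201 and 1095 of all genes), and the calls of DNAJB9, MANF and HSF1 were lost (adjusted p = 0.0719, 0.0538 and 0.0546). Depth is unknown, so no limit from read numbers can be given for low genes such as ERN1 and HSPA1A.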
